A study of Mus musculus with 11 samples.

Results

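Acetylcholine acts in the hippocampus through G protein-coupled muscarinic receptors and ligand-gated nicotinic channels. Muscarinic receptors M1 and M3 couple to Gq and phospholipase C, and M2 and M4 couple to Gi/o, which lowers cyclic AMP and opens inwardly rectifying potassium channels. Nicotinic receptors are pentameric cation channels, of which the α7 homomer and the α4β2 heteromer are the main forms in the brain. The acetylcholine itself comes mostly from septal axons, whose cell bodies lie outside the hippocampus. The genes described here are those of the muscarinic receptors Chrm1, Chrm2, Chrm3 and Chrm4 and of the nicotinic subunits Chrna4, Chrna7 and Chrnb2. They were chosen by symbol and are 7 of the 24421 genes with a count row in each of 11 libraries. All 7 were among the 14982 genes that passed the filter on low counts.

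The libraries were made from the hippocampus of adult offspring of dams given either particulate matter (PM, 6 libraries) or normal saline (vehicle, 5 libraries) through the nose while pregnant, a design that asks which hippocampal transcripts differ in offspring after prenatal exposure. Dosing fell on days 9, 12 and 15 of gestation, birth on day 21, and tissue was taken at 14 to 18 weeks of age, per the labels. The dose, 200 µg/kg, is given for the later libraries only. By their numbering the libraries form set 1, replicates 1 to 3 of both groups, and set 2, PM replicates 4 to 6 and vehicle replicates 4 and 5. The strain, the source of the PM, the number of litters, and whether each library came from 1 animal could not be read from the labels. A p-value here therefore reflects the spread of these libraries, part of which may be technical.

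The PM libraries held 10938521 to 17763893 counts assigned to genes and the vehicle libraries 6012116 to 12496651. Counts assigned to no annotated gene made up 18.8% to 34.0% of all counts in PM libraries and 60.9% to 62.0% in vehicle libraries. The nuclear RNA Malat1 took 0.0827% to 0.807% of gene counts in PM libraries and 2.12% to 2.33% in vehicle libraries, the ribosomal RNA precursor Rn45s 4.01% to 17.0% in PM and 0.792% to 2.17% in vehicle, and Lars2 0.337% to 0.823% in PM and 0.00136% to 0.00773% in vehicle. The labels give 1 protocol for all libraries, but whether library preparation, strand setting and annotation were the same in both groups was not tested, and a difference in them cannot be told apart from PM. Over all libraries, 69.1% of tested genes passed the threshold (adjusted p under 0.05, edgeR quasi-likelihood test), 32.7% higher and 36.4% lower in PM. Longer transcripts were lower in PM: with genes cut into 5 bins of equal size, the median log2 fold change was 0.59 in the bin of shortest transcripts and -0.84 in the bin of longest. It was -0.49 in the bin of lowest GC content and 0.42 in the bin of highest. Trend-corrected values, from a fit in which the trend of counts with transcript length and GC content was taken out of each library, therefore stand beside each receptor. The Y-linked gene Ddx3y had at least 100 counts in 4 of 6 PM libraries and in 3 of 5 vehicle libraries, all 3 of set 1, and at most 1 count in the others, so in vehicle the set and Y-linked content cannot be told apart.

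Against that background, 6 of the 7 receptor genes passed the threshold, 5 lower and 1 higher in PM. Chrm2 fell 11.4-fold and Chrna7 4.28-fold in PM, followed by Chrm3 at 2.05-fold, Chrna4 at 1.66-fold and Chrm1 at 1.48-fold. Chrm4 rose 1.59-fold and Chrnb2 did not pass. Chrm2 met the filter on low counts through its vehicle libraries alone, so its entry into the test depended on the group in which it is high. In 4 of 7 genes (Chrm1, Chrm2, Chrm3 and Chrna7) every PM library lay below every vehicle library, which was so for 28.1% of all tested genes, and in none was every PM library above (24.3%). The median log2 fold change was -0.73 over the 7 genes and -0.04 over all tested genes. Since the tissue was sequenced in bulk, fewer cells of a type and less RNA per cell cannot be told apart.

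**Figure D1:**
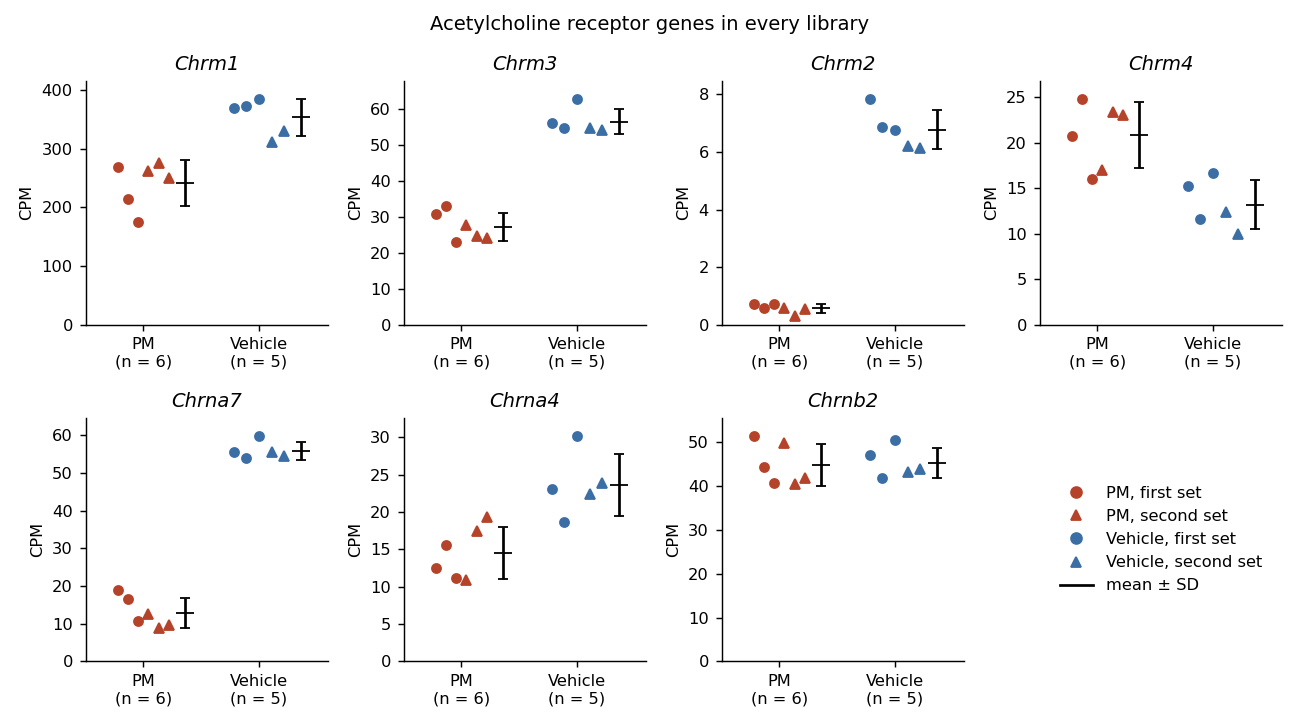
Level of each receptor gene in every library, in CPM (counts per library of equal, TMM-scaled size) on a linear axis that starts at 0, with PM on the left and vehicle on the right. Circles are first-set and triangles second-set libraries, and bars are the mean ± SD. Chrm2 lies between 0.291 and 0.729 CPM in PM libraries and between 6.15 and 7.84 CPM in vehicle libraries, and Chrnb2 shows overlapping groups.

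RefSeq promoter sequence (GRCm38.p6) was matched by symbol for 6 of the 7 genes. The 250 bases before the start are shown for the genes with the strongest falls, Chrm2 and Chrna7, and for the 1 gene that rose, Chrm4, to let their base composition be compared. They lie at chr6:36387834-36388083 (plus strand) for Chrm2, at chr7:63212527-63212776 (minus strand) for Chrna7 and at chr2:91921939-91922188 (plus strand) for Chrm4, written 5′ to 3′ in the direction of the gene. Capitals mark every match to the GC box GGGCGG or the E box CACGTG on either strand.
Chrm2: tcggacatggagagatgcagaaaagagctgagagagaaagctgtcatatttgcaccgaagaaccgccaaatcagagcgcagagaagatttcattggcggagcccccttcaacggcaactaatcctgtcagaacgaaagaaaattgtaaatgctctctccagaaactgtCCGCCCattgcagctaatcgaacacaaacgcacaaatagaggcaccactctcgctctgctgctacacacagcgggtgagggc
Chrna7: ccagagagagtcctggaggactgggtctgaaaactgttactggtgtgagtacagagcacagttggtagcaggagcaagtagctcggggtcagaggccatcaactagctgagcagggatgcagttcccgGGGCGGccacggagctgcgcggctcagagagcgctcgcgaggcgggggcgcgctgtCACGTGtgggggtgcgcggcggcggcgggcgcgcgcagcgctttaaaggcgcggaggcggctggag
Chrm4: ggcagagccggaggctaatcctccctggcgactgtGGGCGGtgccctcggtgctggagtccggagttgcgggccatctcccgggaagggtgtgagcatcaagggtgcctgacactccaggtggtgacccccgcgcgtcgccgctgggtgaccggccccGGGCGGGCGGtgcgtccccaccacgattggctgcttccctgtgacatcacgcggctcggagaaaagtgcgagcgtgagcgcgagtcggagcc
GC content was 50% for Chrm2, 67.2% for Chrna7 and 70.0% for Chrm4, against a median of 52.4% over 32851 RefSeq promoters of the same length. Chrm2 held 12 CpG dinucleotides, Chrna7 25 and Chrm4 26, against a median of 6. Chrm2 and Chrna7 held 1 GC box each and Chrm4 held 3, 2 of which overlap, and 32.7% of all promoters held at least 1. Chrna7 also held 1 E box, a motif found in 6.02% of promoters. The letters TATAAA (12.4% of promoters) and the xenobiotic response element letters TNGCGTG (4.1%), searched on both strands, had no match in any of the 6 promoters. Of the promoters not printed, that of Chrna4 held 3 GC boxes and those of Chrm3 and Chrnb2 none.

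Chrm1, on chromosome 19 (8663789 to 8683587, plus strand, GRCm38), encodes M1, the main Gq-coupled muscarinic receptor of hippocampal pyramidal cells. It measured 269, 214, 174, 263, 275 and 250.2 CPM in PM replicates 1 to 6, against 369, 372, 385, 311 and 329.5 CPM in vehicle replicates 1 to 5. All PM libraries were below all vehicle libraries, and set 1 had both the lowest PM value and the highest vehicle value. The mean was 241 ± 39.1 CPM in PM and 353 ± 31.5 CPM in vehicle (SD, n = 6 and 5), a log2 fold change of -0.56 (SE 0.12, edgeR adjusted p = 8.90e-04). By set, the log2 fold change was -0.78 in set 1 (adjusted p = 2.43e-05) and -0.29 in set 2 (adjusted p = 0.0723, not passed). The set 2 value passed when PM replicate 1 (adjusted p = 0.0125) or PM replicate 3 (adjusted p = 0.0193) was left out of the joint fit. It also passed when set 2 was fitted alone (-0.28, adjusted p = 0.00901). The trend-corrected value over all libraries was closer to 0, at -0.25 (adjusted p = 0.0159). By set it was -0.38 in set 1 (adjusted p = 0.00111) and -0.087 in set 2 (adjusted p = 0.476, not passed).

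Chrm3, on chromosome 13 (9875486 to 10360847, minus strand), encodes M3, the other Gq-coupled receptor of the group. Its level was 30.8, 32.9, 23.1, 27.8, 24.6 and 24.2 CPM in PM replicates 1 to 6, against 56.1, 54.8, 62.7, 54.6 and 54.2 CPM in vehicle replicates 1 to 5. The groups were apart in both sets, with vehicle replicate 3 the highest library. Means were 27.2 ± 3.97 CPM in PM and 56.5 ± 3.57 CPM in vehicle (SD, n = 6 and 5), and Chrm3 fell by 1.04 on the log2 scale (SE 0.098, edgeR adjusted p = 5.81e-07). The log2 fold change was -1.0 in set 1 and -1.09 in set 2, and the trend-corrected value was -0.99.

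Chrm2, on chromosome 6 (36388084 to 36528414, plus strand), encodes M2, a Gi/o-coupled receptor that acts on cholinergic terminals as an autoreceptor and is also found on interneurons. It was the scarcest of the 7 genes and the one with the strongest fall. PM replicates 1 to 6 held 12, 10, 10, 8, 4 and 6 counts, and vehicle replicates 1 to 5 held 99, 76, 75, 38 and 56. In CPM these were 0.729, 0.591, 0.716, 0.594, 0.291 and 0.531 in PM libraries, against 7.84, 6.88, 6.78, 6.21 and 6.15 in vehicle libraries. Every PM count lay above the limit that a count of 0 allows, 3 counts, yet below every vehicle count, although the PM libraries held more counts in total. Means were 0.575 ± 0.159 CPM in PM and 6.77 ± 0.680 CPM in vehicle (SD, n = 6 and 5). The log2 fold change was -3.51 (SE 0.19, edgeR adjusted p = 5.56e-09), with -3.39 in set 1 and -3.69 in set 2. The trend-corrected value was -2.82, and Chrm2 lies in the bin of longest transcripts and in that of lowest GC content. Its exons share 142 bases with the lincRNA gene 9330158H04Rik on the opposite strand, which had 29 counts over all libraries.

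Chrm4, on chromosome 2 (91927249 to 91928688, plus strand), encodes M4, the second Gi/o-coupled receptor, and was the only receptor gene higher in PM over all libraries. It measured 20.7, 24.8, 16.0, 17.0, 23.4 and 23.0 CPM in PM replicates 1 to 6, against 15.3, 11.7, 16.7, 12.4 and 10 CPM in vehicle replicates 1 to 5. The groups overlapped in set 1, where PM replicate 3 lay below vehicle replicate 3, and were apart in set 2. The mean was 20.8 ± 3.63 CPM in PM and 13.2 ± 2.73 CPM in vehicle (SD, n = 6 and 5), a log2 fold change of 0.67 (SE 0.16, edgeR adjusted p = 0.00185). The fold change was 0.50 in set 1 (adjusted p = 0.0207) and 0.93 in set 2 (adjusted p = 0.00182). In set 1 it did not pass without vehicle replicate 2 (0.36, adjusted p = 0.105) or without PM replicate 2 (0.34, adjusted p = 0.123). Trend correction ended the call and turned the sign, at -0.11 (adjusted p = 0.544). The GENCODE model used for that trend holds 1440 bases in 1 exon and almost no untranslated sequence, whereas the RefSeq start lies upstream of it. With that model Chrm4 falls in the bin of shortest transcripts, so its trend-corrected value rests on an uncertain length, and no fit with a longer model was run.

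**Figure D2:**
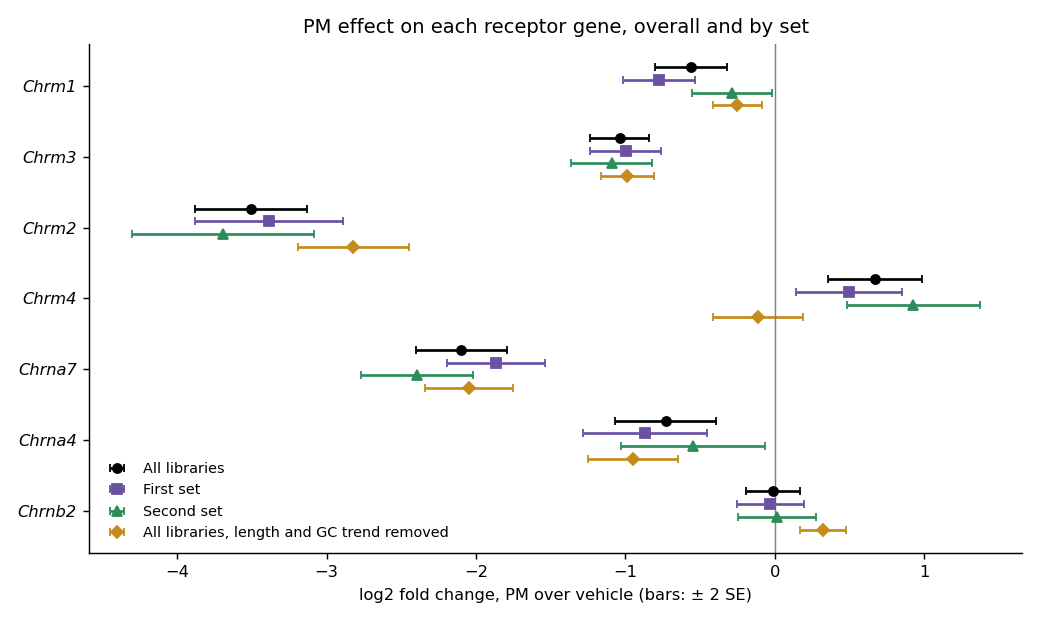
Log2 fold change of each receptor gene, PM over vehicle, with bars of ± 2 SE: over all libraries, within the first and the second set, and over all libraries after trend correction for transcript length and GC content. Chrm2 and Chrna7 lie furthest below 0 in every series, whereas Chrm4 moves from 0.67 to -0.11 and Chrnb2 from -0.01 to 0.32 after trend correction.

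Chrna7, on chromosome 7 (63098692 to 63212569, minus strand), encodes the α7 subunit, which forms calcium-permeable homomeric channels on hippocampal interneurons and glutamatergic terminals. It measured 18.9, 16.5, 10.7, 12.7, 8.88 and 9.65 CPM in PM replicates 1 to 6, against 55.4, 53.9, 59.8, 55.4 and 54.4 CPM in vehicle replicates 1 to 5. The vehicle libraries lay close together, and the highest PM library had well below the lowest vehicle value. Means were 12.9 ± 4.01 CPM in PM and 55.8 ± 2.36 CPM in vehicle (SD, n = 6 and 5), with a log2 fold change of -2.10 (SE 0.15, edgeR adjusted p = 5.81e-08). The fold change was -1.87 in set 1 and -2.40 in set 2, and the trend-corrected value was -2.05. Its longest transcript, 2814 bases, which the trend used, lies in length bin 2 of 5, counted from the shortest. The longest coding transcript holds 2078 bases. GC content, 44.3%, lies in GC bin 2 of 5, counted from the lowest.

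Chrna4, on chromosome 2 (181018380 to 181043546, minus strand), encodes the α4 subunit, which binds acetylcholine together with β2 in the high-affinity nicotine receptor. Its level was 12.5, 15.6, 11.2, 10.9, 17.5 and 19.3 CPM in PM replicates 1 to 6, against 23.1, 18.6, 30.2, 22.4 and 23.8 CPM in vehicle replicates 1 to 5. PM libraries were below vehicle libraries within each set, but PM replicate 6 of set 2 exceeded vehicle replicate 2 of set 1. The mean was 14.5 ± 3.50 CPM in PM and 23.6 ± 4.17 CPM in vehicle (SD, n = 6 and 5), a log2 fold change of -0.73 (SE 0.17, edgeR adjusted p = 0.00159). The trend-corrected value was -0.95 (adjusted p = 9.58e-05). By set, without that correction, it was -0.87 in set 1 (adjusted p = 0.00190) and -0.55 in set 2 (adjusted p = 0.0593, not passed). The set 2 value passed without vehicle replicate 2 (adjusted p = 0.0478), vehicle replicate 3 (adjusted p = 0.0398) or PM replicate 6 (-0.71, adjusted p = 0.0256), and after trend correction (-0.95, adjusted p = 0.00297).

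Chrnb2, on chromosome 3 (89746195 to 89764632, minus strand), encodes β2, the structural partner of α4. It measured 51.4, 44.4, 40.5, 49.8, 40.3 and 41.7 CPM in PM replicates 1 to 6, against 47.0, 41.8, 50.4, 43.2 and 43.8 CPM in vehicle replicates 1 to 5. The groups overlapped in both sets. Means were 44.7 ± 4.83 CPM in PM and 45.3 ± 3.47 CPM in vehicle (SD, n = 6 and 5). The log2 fold change was -0.01 with an interval of ± 2 SE from -0.19 to 0.17 (edgeR adjusted p = 0.924), and its sign differed between set 1 (-0.03) and set 2 (0.01). After trend correction Chrnb2 passed as higher in PM, at 0.32 (adjusted p = 0.00248). Exons of Chrnb2 share 1365 bases with Adar on the opposite strand, and without a stated strand setting reads of the shared bases cannot be told apart. Counts ambiguous between genes made up 1.21% to 1.42% of all counts in PM libraries and 0.538% to 0.582% in vehicle libraries. Their part in the Chrnb2 values, and in the ratios to Chrnb2, was not tested.

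In set 1, 6 of 7 receptor genes passed (71% of all tested genes), 1 higher (32.1%) and 5 lower (38.9%). In set 2 of the joint fit, 4 of 7 passed (64.8%), 1 higher (32.3%) and 3 lower (32.5%), and Chrm1, Chrna4 and Chrnb2 did not. The difference of the PM effect between sets passed for none of the 7 genes in the edgeR interaction test, against 29.6% of all tested genes (17.5% higher and 12.1% lower). Only Chrm1 had an unadjusted p under 0.05 for the difference (0.0157, adjusted p = 0.0523), a value of 0.49 on the log2 scale, set 2 minus set 1. It passed without PM replicate 1 (0.66, adjusted p = 0.00101). Chrna7 differed by -0.53 (adjusted p = 0.124), and passed without PM replicate 3 (-0.73, adjusted p = 0.00840) or PM replicate 4 (-0.70, adjusted p = 0.0490). The comparisons within set 1 and set 2 contrast different libraries. They come from 1 fit whose estimate of spread uses all 11 libraries, so their p-values are not independent.

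Levels were compared between genes per kilobase of annotated exon. In PM libraries the order was Chrm1 (37.1 CPM per kilobase), Chrm4 (14.5), Chrnb2 (5.33), Chrm3 (4.35), Chrna4 (2.88), Chrna7 (2.86) and Chrm2 (0.0951), with overlapping library ranges from Chrnb2 through Chrna7 between each gene and the next. In vehicle libraries it was Chrm1 (54.5 CPM per kilobase), Chrna7 (12.4), Chrm4 (9.18), Chrm3 (9.03), Chrnb2 (5.40), Chrna4 (4.71) and Chrm2 (1.12), where Chrm4 overlapped Chrm3 and Chrnb2 overlapped Chrna4. Chrm1 was thus first and Chrm2 last in both groups, whereas Chrna7 stood at position 6 in PM and 2 in vehicle. With the length of the longest coding transcript instead, Chrna7 measured 6.20 CPM per kilobase in PM (position 5) and 26.8 in vehicle (position 2), and Chrm3 stood before Chrm4 in vehicle. The level of Chrm4 per kilobase rests on the 1440-base model and would be lower with a longer one.

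**Figure D3:**
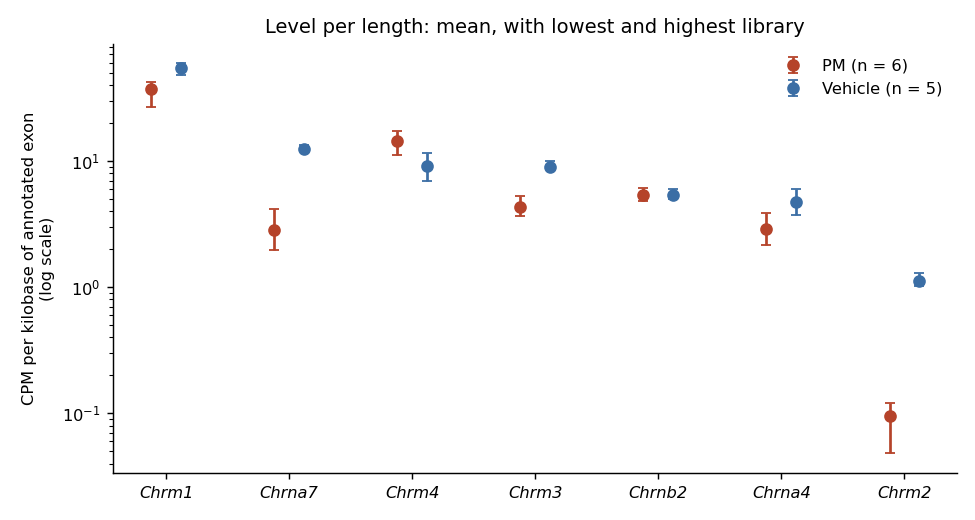
Level of each receptor gene in CPM per kilobase of annotated exon on a log axis, PM left of vehicle for each gene, genes ordered by their vehicle level. Points are means and bars run from the lowest to the highest library. Chrna7 averages 2.86 in PM and 12.4 in vehicle, Chrm4 14.5 in PM and 9.18 in vehicle, and Chrm2 is lowest in both groups.

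Ratios between receptors of 1 coupling class, or of nicotinic subunits to Chrnb2, were taken within each library from counts, which removes library scaling. There were 4 ratios, each tested by a two-sided exact permutation test of the PM and vehicle labels, whose smallest possible p is 0.00216. The ratios were chosen with earlier results of these data known, and Chrm2 met the filter on low counts through its vehicle libraries alone. Their p-values therefore describe the separation of these libraries and are no independent test of the fold changes above. The log2 ratio of Chrm2 to Chrm4, the Gi/o pair, averaged -5.13 ± 0.62 in PM and -0.94 ± 0.24 in vehicle (SD, n = 6 and 5), a difference of -4.18 (exact p = 0.00216, adjusted over the 4 ratios 0.00433). PM libraries ran from -6.16 to -4.41 and vehicle libraries from -1.30 to -0.70, with no overlap. The log2 ratio of Chrna7 to Chrnb2 averaged -1.84 ± 0.33 in PM and 0.30 ± 0.06 in vehicle, a difference of -2.14 (exact p = 0.00216, adjusted 0.00433), also with no overlap. Counts of α7 transcript thus outnumbered those of β2 in all 5 vehicle libraries and were fewer in all 6 PM libraries.

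For the Gq pair, Chrm3 to Chrm1, the log2 ratio averaged -3.14 ± 0.29 in PM and -2.64 ± 0.10 in vehicle, a difference of -0.50 (exact permutation p = 0.0130, adjusted 0.0130), and the groups overlapped. Within sets the difference was -0.21 in set 1 and -0.81 in set 2. The ratio of Chrna4 to Chrnb2, subunits of the same heteromer, averaged -1.65 ± 0.45 in PM and -0.95 ± 0.16 in vehicle, a difference of -0.70 (exact permutation p = 0.0130, adjusted 0.0130) with overlap, and was -0.83 in set 1 and -0.59 in set 2. All 4 ratios compare genes of different transcript length, and the part of the length trend in them was not tested. No ratio could reach the threshold within 1 set.

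**Figure D4:**
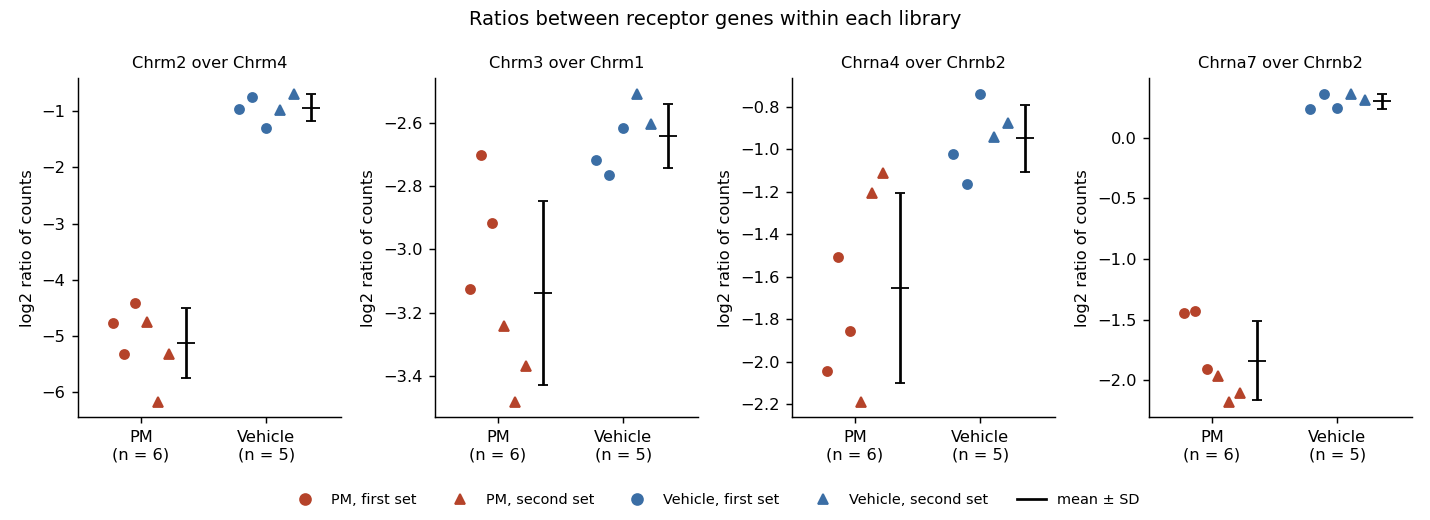
Log2 ratio of counts plus 0.5 between receptor genes in every library, PM left of vehicle; circles are first-set and triangles second-set libraries, and bars are the mean ± SD. The ratios of Chrm2 to Chrm4 and of Chrna7 to Chrnb2 are separate between groups, and those of Chrm3 to Chrm1 and Chrna4 to Chrnb2 overlap.

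The genes whose profiles over the 11 libraries were nearest to a receptor gene were found by the root mean square difference between mean-centred log2 CPM profiles, among 14981 other genes. Nearest to Chrna7 were Zfp418 (0.126), Ptch1 and Irs2, of which Zfp418 averaged 2.79 CPM in PM and 12.6 CPM in vehicle. For Chrm1 they were Pigt (0.0674), Tgfbrap1 and Klhl29, and for Chrm3 Rnf24 (0.0761), Cyfip2 and Zswim5. For Chrm4 they were Spire2 (0.162), Atcay and Zfp13, for Chrna4 Tox2 (0.107), Tmc7 and Trim66, and for Chrnb2 Cyth3 (0.0547), Rnft2 and Kif1bp. Likeness here includes the group difference itself, and all the genes named here were also among the nearest with DESeq2 size factors.

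Of 14 further acetylcholine receptor genes, 5 passed the filter on low counts, and 4 of these were lower and none higher in PM (36.4% and 32.7% of all tested genes), with a median log2 fold change of -1.07. Chrm5, the Gq-coupled M5 receptor, averaged 0.736 ± 0.362 CPM in PM and 4.57 ± 1.05 CPM in vehicle. It fell by 2.62 on the log2 scale (SE 0.31, edgeR adjusted p = 5.24e-06). Like Chrm2, Chrm5 met the filter through its vehicle libraries. Chrna2, a subunit known from oriens-lacunosum moleculare interneurons, fell by 1.56 (adjusted p = 2.94e-05). Chrna5, an accessory subunit of α4β2 receptors, fell by 1.07 (adjusted p = 3.31e-05), and Chrnb1, the β subunit of the muscle receptor, fell by 0.85 (adjusted p = 0.00327). By set, Chrnb1 was at -1.02 in set 1 (adjusted p = 0.00367) and -0.63 in set 2 (adjusted p = 0.0958, not passed). Chrna1, the muscle α subunit, was at -0.52 (adjusted p = 0.0724), and passed without PM replicate 1 (-0.63, adjusted p = 0.0496) or PM replicate 4 (-0.64, adjusted p = 0.0281). The 9 others were too scarce to test, Chrnd being at 0 in every library.

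Genes of acetylcholine synthesis were nearly absent. Chat and Slc18a3, which make acetylcholine and load it into vesicles, and Lhx8, Isl1 and Gbx1 had 3 or fewer counts in every library. Slc5a7, of the same list of cholinergic neuron genes, was scarce but present. It averaged 0.513 CPM in PM and 0.964 CPM in vehicle and did not pass the filter on low counts. Ngfr, a neurotrophin receptor gene of cholinergic neurons, was tested and had a log2 fold change of 0.06 (edgeR adjusted p = 0.884). Among esterases and choline transporters, 1 of 7 tested genes rose and 3 fell, against 32.7% higher and 36.4% lower of all tested genes. Bche, butyrylcholinesterase, fell by 1.44 on the log2 scale (adjusted p = 4.49e-06) and the choline transporter-like gene Slc44a5 by 1.16 (adjusted p = 5.81e-07). Their trend-corrected values were -0.57 and -0.58. Slc44a1, a choline transporter, fell by 0.62 (adjusted p = 0.00114) and Slc22a4, an organic cation transporter, rose by 0.49 (adjusted p = 0.0286). Trend correction ended the calls of Slc44a1 and Slc22a4. Slc22a4 also did not pass without any 1 of vehicle replicates 2, 3 and 4 or PM replicates 1 and 4, with adjusted p of 0.0545 to 0.0771. Ache, acetylcholinesterase, was at -0.04 over all libraries (adjusted p = 0.828), but moved in opposite directions in the sets. It fell by 0.46 in set 1 (adjusted p = 0.00161), with all PM libraries below all vehicle libraries there, and rose by 0.51 in set 2 (adjusted p = 0.00249), with all PM libraries above. The difference between the sets passed (adjusted p = 7.59e-04), and the trend-corrected value over all libraries was -0.57 (adjusted p = 6.33e-04).

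A list around nicotinic receptors held 9 tested genes: Ric3, genes of the Ly6 family, Vsnl1, and Nptn, whose link to these receptors was not tested. Of the 9, 4 were higher in PM and none lower (32.7% and 36.4% of all tested genes), with a median log2 fold change of 0.31. In set 1, 5 were higher and 1 lower, in set 2, 4 were higher and 2 lower, and after trend correction 5 were higher and 1 lower. Ly6h, which limits α7 at the cell surface, averaged 225 ± 32.6 CPM in PM and 97.7 ± 6.51 CPM in vehicle (SD, n = 6 and 5), and rose by 1.18 on the log2 scale (SE 0.10, edgeR adjusted p = 1.58e-07). Lynx1, a membrane-anchored brake on nicotinic receptors, rose by 0.54 (adjusted p = 2.66e-04), Lypd6b by 0.83 (adjusted p = 4.62e-04) and Vsnl1, visinin-like protein, by 0.31 (adjusted p = 0.00475). Trend correction ended the calls of Lynx1 (0.17) and Vsnl1 (0.23), and left Ly6h at 0.78 and Lypd6b at 0.63. The α7 chaperone Ric3 was at -0.14 over all libraries (adjusted p = 0.258), with 0.11 in set 1 (adjusted p = 0.307) and -0.46 in set 2 (adjusted p = 0.00127), where all PM libraries were below all vehicle libraries. Its difference between the sets passed (adjusted p = 0.00730), and its trend-corrected value was 0.38 (adjusted p = 0.00119). Lypd6, of the Ly6 family, was the other gene lower in set 2 (-0.84, adjusted p = 1.19e-04), against 0.19 in set 1 (adjusted p = 0.168). Ly6e, of the same family, was the 1 gene lower in set 1 (-0.40, adjusted p = 0.0269) and after trend correction (-0.78, adjusted p = 1.04e-04), and over all libraries it passed without PM replicate 4 only (-0.27, adjusted p = 0.0316).

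Downstream of M1 and M3, 10 of 15 Gq pathway genes fell and 3 rose, against 36.4% lower and 32.7% higher of all tested genes. Prkca, a protein kinase C, averaged 255 ± 45.2 CPM in PM and 655 ± 58.3 CPM in vehicle and fell by 1.35 on the log2 scale (edgeR adjusted p = 1.06e-07). The phospholipase C genes Plcb4 and Plcb1 fell by 1.44 (adjusted p = 1.11e-06) and 1.00 (adjusted p = 7.58e-07), whereas the G protein gene Gna11 rose by 0.94 (adjusted p = 1.20e-07). After trend correction 7 genes of this list were higher and 6 lower, and Plcb1 was at -0.10 (adjusted p = 0.212). Prkca was then at -0.36, Plcb4 at -0.89 and Gna11 at 0.41. Among the channels that Gq-coupled receptors close or open, 7 of 9 fell and none rose (36.4% and 32.7% of all tested genes), with a median of -1.12. After trend correction 8 were lower and 1 higher. Kcnq3, an M-current subunit, averaged 18.6 ± 5.77 CPM in PM and 98.1 ± 9.85 CPM in vehicle and fell by 2.38 (adjusted p = 1.98e-08). The TRPC channel gene Trpc5 fell by 2.59 (adjusted p = 1.02e-08), Trpc4 fell by 1.55 (adjusted p = 1.65e-08) and Trpc1 fell by 1.52 (adjusted p = 3.10e-07). Trend-corrected values were -1.01 for Kcnq3, -2.48 for Trpc5, -1.53 for Trpc4 and -1.18 for Trpc1.

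Downstream of M2 and M4, 7 of 13 Gi/o pathway genes fell and 3 rose (36.4% and 32.7% of all tested genes), with a median of -0.21. The potassium channel genes that Gi/o opens moved apart: Kcnj6 (GIRK channel) averaged 29.5 ± 8.95 CPM in PM and 143 ± 10.3 CPM in vehicle and fell by 2.33 on the log2 scale (edgeR adjusted p = 1.36e-07), whereas Kcnj9, of the same family, rose by 0.91 (adjusted p = 3.08e-06). The adenylyl cyclase gene Adcy9 fell by 0.96 (adjusted p = 9.43e-07) and the Go gene Gnao1 by 0.58 (adjusted p = 3.23e-06). Trend-corrected values were -2.32 for Kcnj6, 0.46 for Kcnj9, -1.14 for Adcy9 and -0.58 for Gnao1. Of 12 receptor kinase, arrestin and RGS genes, 3 rose and 3 fell (32.7% and 36.4% of all tested genes), among them Rgs14 (1.00, adjusted p = 1.95e-07), Grk6 (0.84, adjusted p = 6.43e-06), Adrbk1 (0.68, adjusted p = 2.12e-06) and Rgs7 (-0.60, adjusted p = 1.79e-06). After trend correction 6 of these 12 were higher, with Rgs14 at 0.61, Grk6 at 0.26, Adrbk1 at 0.17 and Rgs7 at -0.28.

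**Figure D5:**
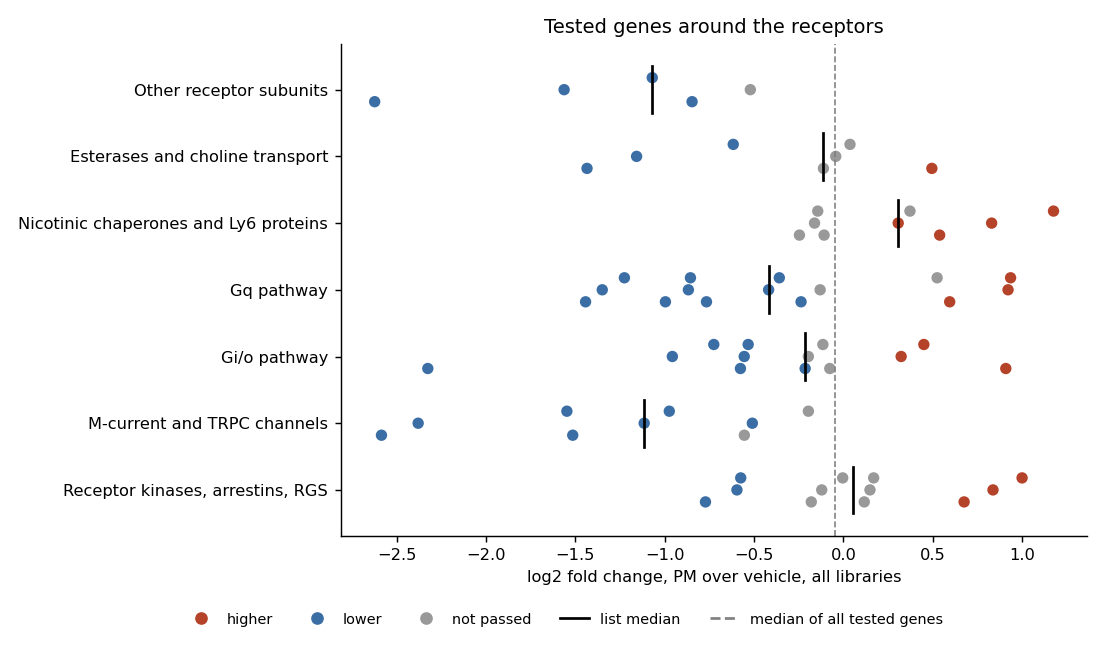
Log2 fold change, PM over vehicle, of each tested gene in 7 lists around the receptors, coloured by whether it passed higher, lower or not at all. The bar is the list median and the dashed line the median of all tested genes (-0.04); the median is -1.12 for M-current and TRPC channels, -1.07 for other receptor subunits and 0.31 for nicotinic chaperones and Ly6 proteins.

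Markers of the cell types that carry these receptors were read in the same libraries. Of 13 hippocampal principal cell markers, 5 were higher and 3 lower in PM (32.7% and 36.4% of all tested genes), with a median log2 fold change of 0.06, and their summed level was 1319 to 1498 CPM in PM libraries and 1621 to 1830 CPM in vehicle libraries, none of them being at 0. The lower sum in PM lay in the 3 lower markers, foremost Zbtb20, a transcription factor gene that averaged 62.6 ± 22.6 CPM in PM and 314 ± 41.5 CPM in vehicle (SD, n = 6 and 5). Of 12 interneuron markers, 2 were higher and 4 lower, with a sum of 1008 to 1175 CPM in PM and 1405 to 1455 CPM in vehicle. Of 8 microglial markers 6 were higher and none lower, with sums of 264 to 390.0 CPM in PM and 195 to 221 CPM in vehicle, and of 8 oligodendrocyte markers 5 were higher and none lower, with 4172 to 9570 CPM in PM and 3907 to 4976 CPM in vehicle. Of 8 astrocyte markers 4 were higher and 2 lower, with a median log2 fold change of 0.55. Their sum, 3642 to 6527 CPM in PM and 7206 to 7628 CPM in vehicle, was lower in PM through the glutamate transporter gene Slc1a2, which averaged 2607 ± 841 CPM in PM and 5757 ± 162 CPM in vehicle. For neighbouring tissue, 1 of 8 striatal markers was higher and 3 lower, and their sum, 116 to 135 CPM in PM and 193 to 204 CPM in vehicle, was lower in PM through Pde10a, a phosphodiesterase gene, which averaged 53.0 ± 9.52 CPM in PM and 138 ± 7.19 CPM in vehicle. Of 7 tested thalamic and habenular markers 1 was higher and 3 lower, with sums of 110 to 127 CPM in PM and 182 to 201 CPM in vehicle. Of 8 neocortical markers 2 were higher and 3 lower, with 155 to 276 CPM in PM and 311 to 411 CPM in vehicle. Of 3 tested pituitary genes 2 were higher and 1 lower, with 3.34 to 21.6 CPM in PM and 1.96 to 3.64 CPM in vehicle. Of 8 endothelial markers 4 were higher and none lower. The choroid plexus sum, 36.5 to 2521 CPM in PM and 75.5 to 1280 CPM in vehicle, varied with the library in both groups. Trend correction ended the calls of Zbtb20 (-0.44) and Slc1a2 (0.17). The part of these differences in the receptor results was not tested.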

How the data were processed

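RNA was sequenced from mouse hippocampus in 11 libraries, 6 PM and 5 vehicle. Ribosomal RNA was depleted, per the labels' protocols, before NEBNext Ultra II library preparation and 100-base paired-end sequencing, while another label names polyA RNA. The authors deposited raw counts per gene symbol, and the submitters' processing notes name FastQC 0.11.9, Trimmomatic 0.36, STAR, SAMtools 1.9, Picard 2.9.2 and HTSeq 0.9.1, with builds mm10 and hg19. No strand setting for counting is stated. Summary rows that name no gene (no feature 18.8% to 34.0% in PM, 60.9% to 62.0% in vehicle) entered neither library sizes nor tests.

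Counts were fitted with edgeR 4.0.16 in R 4.3.3 (filterByExpr with minimum count 10, TMM scaling, robust quasi-likelihood test, set as covariate, Benjamini-Hochberg adjustment over 14982 genes). Effects by set and their difference came from 1 joint fit of the 4 group-by-set means, and a standard error is the fold change divided by the root of F. CPM used TMM-scaled library sizes. The scripts were tested on simulated data. No 2 libraries agreed within sampling noise (lowest chi-square per degree of freedom 2.01), so none were merged. Lengths and GC content came from the GENCODE annotation of GRCm38, to which 98.5% of symbols matched, and trend correction used offsets from a spline with 5 degrees of freedom per library. Coordinates are those of GRCm38, the base of mm10. A count of 0 in a library allows up to 3 counts, or 0.169 to 0.274 CPM in PM and 0.240 to 0.499 CPM in vehicle, and such limits cover counting error only.

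The receptor genes, the lists and the ratios were chosen with earlier results of these data known. Named genes were the 7 receptors, in each pathway list up to 4 tested members of smallest p, every other receptor gene tested, and the 3 nearest profiles to each receptor; Ric3, Ache, Lypd6, Ly6e, Zbtb20, Slc1a2 and Pde10a were added after their values were seen. Some genes that this rule names are not reported here. Alternatives covered scaling, filter, test, covariates, replicate block, the length and GC trend, and leaving out libraries. Whether replicate numbers pair the samples was checked by the correlation of their deviations from group means.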

Additional observations from a re-analysis of the deposited data

Results flagged for a closer look

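Of 98 groups of libraries of the named genes, 4 held a library standing apart from the rest, and chance alone gives about 1 in 20. Vehicle replicate 3 was the highest vehicle library for Chrm3 (62.7 CPM) and for Chrna7 (59.8 CPM), both above every PM library. Vehicle replicate 4 was the highest vehicle library for Chrm5 (6.37 CPM), and PM replicate 4 the highest PM library for Slc22a4 (9.65 CPM).

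The PM effect differed between the sets for 3 of the 30 pathway genes named by rule in the edgeR interaction test, against 29.6% of all tested genes. The second set minus the first was -0.75 on the log2 scale for Bche (-1.87 and -1.11, adjusted p = 0.0423) and -0.70 for Slc44a1 (-1.01 and -0.31, adjusted p = 0.00882). It was 0.54 for Grk6 (1.14 in the second set and 0.61 in the first, adjusted p = 0.00560). It also passed for 6 of the 7 genes added after their values were seen. In Ache (0.97, adjusted p = 7.59e-04), Ric3 (-0.57, adjusted p = 0.00730) and Lypd6 (-1.03, adjusted p = 0.00113) the sign differed between the sets. The markers Slc1a2 (-0.82), Pde10a (0.47) and Zbtb20 (1.18) were lower in PM in both sets.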

How the results depend on the processing

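Over all libraries, Chrm1, Chrm2, Chrm3, Chrna4 and Chrna7 stayed lower and past the threshold under every scaling, filter, test and covariate run and without any 1 library; Chrna4 did not pass in set 2 fitted alone (-0.54). Trend correction for length and GC content turned Chrm4 to -0.11 over all libraries and -0.20 in set 1 and left 0.022 in set 2, where no receptor gene was then higher. It moved Chrnb2 to 0.32, 0.40 in set 1 and a set difference of -0.17, and Chrna4 in set 2 to -0.95. Chrnb2 also turned positive with DESeq2 size factors (0.018, and 0.032 in set 1), no filter (0.084 and 0.12), the DESeq2 Wald test (0.019), set 1 alone (0.067) and set 2 alone (0.024), and its set difference turned to -0.031 and -0.079 with those size factors and no filter. A minimum count of 50 gave Chrnb2 -0.0088 and Chrna4 -0.57 in set 2, and 0.52 for the set difference of Chrm1, which then passed (1 gene). With total counts unscaled, the set difference of Chrm1 was 0.65 (1 gene) and of Chrm3 0.063, 900 genes had a lower set difference, and Chrm4 was 0.41 in set 1, where 0 receptor genes were then higher. Ngfr turned to -0.49 after trend correction and -0.46 with set 2 alone, and ran from -0.15 to 0.27 without 1 library. Trend correction also turned Ric3 to 0.38 and Slc1a2 to 0.17. Ache turned to 0.053 with no filter, 0.11 with no set covariate and 0.52 with set 2 alone, and ran from -0.17 to 0.060 without 1 library. With set 1 alone Ric3 was 0.21 and Lypd6 0.29, and with set 2 alone Ly6e was 0.15.

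Leaving out 1 library in turn gave, for Chrnb2, -0.0601 to 0.0550 over all libraries, -0.130 to 0.0648 in set 1, -0.0868 to 0.0742 in set 2 and -0.0547 to 0.142 for their difference. In set 1 Chrm4 ran from 0.34 to 0.64. In set 2 Chrm1 ran from -0.33 to -0.24 and Chrna4 from -0.71 to -0.34. The set difference ran from 0.35 to 0.66 for Chrm1, -0.230 to 0.00856 for Chrm3 and -0.73 to -0.36 for Chrna7. Receptor genes higher in set 1 numbered 0 to 1, and those with a higher or lower set difference 0 to 1. Genes with a higher set difference numbered 1653 to 3151 and a lower one 747 to 2461, both lowest without vehicle replicate 5, which leaves 1 vehicle library in that set, assumed to vary like the others. The causes of these changes were not tested.

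No pairing by replicate number was seen: same-numbered libraries correlated at -0.18 to -0.005 in their deviations from group means, and none of 5 correlated best with its own number. The means were taken over 2 or 3 libraries of a group and set, so the check cannot exclude a pairing. With the replicate block in the fit, no receptor call changed (Chrm2 -3.53, Chrm4 0.63). Paired differences of the ratios under the replicate block were -4.14 for Chrm2 to Chrm4, -0.45 for Chrm3 to Chrm1, -0.81 for Chrna4 to Chrnb2 and -2.09 for Chrna7 to Chrnb2. In the same order they were -3.83, -0.21, -0.83 and -1.88 with set 1 alone and -4.57, -0.81, -0.59 and -2.42 with set 2 alone, designs too small to reach the threshold. The 4 to 12 counts of Chrm2 in PM libraries limit the precision of its fold change.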
